A study of Mus musculus with 16 samples.

Results

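Interferon gamma and the genes that carry its signal were followed here as 8 genes: Ifng, the cytokine, Ifngr1 and Ifngr2, the chains of its receptor, Jak1 and Jak2, the kinases bound to those chains, and Irf1, Socs1 and Ido1, which the signal induces. They were listed by role and matched by symbol, and all 8 were found among the 53465 genes of the count table and were tested. Bulk RNA-seq had been done on 16 MC38 tumors, each from another female C57BL/6 mouse aged 6 to 8 weeks at implantation. MC38 is a mouse colon adenocarcinoma line, and cells had been placed under the skin of the right flank. On day 16, when tumors measured 150 to 250 mm3, 8 mice were assigned at random to control IgG and 8 to aPD-1, an antibody that blocks the T cell inhibitory receptor PD-1, at 200 µg on days 16 and 20. Tumors were taken on day 21. There were 8 IgG tumors (replicates 1 to 8), 6 aPD-1 non-responder tumors (replicates 9 to 14) and 2 aPD-1 responder tumors (replicates 15 and 16).

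Responders and non-responders were told apart by CD8 staining of a separate piece of each tumor, so the split is not independent of genes that T cells make, and only aPD-1 against IgG was randomized. All tumors came from 1 cell line, and each library from 2 sections of 100 µm, so cancer, immune and adjoining tissue were measured together. In such bulk samples, fewer cells of a type and less RNA per cell cannot be told apart.

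Total counts ran from 26603449 to 39948866 per tumor. In 3 tumors, IgG replicate 1 and non-responder replicates 9 and 14, 5.54% to 7.32% of the counts fell on mitochondrially encoded genes, against 1.84% to 3.15% in the other 13. In IgG replicate 3, 20.4% of the counts fell on 1 ribosomal RNA-like entry, against a median of 0.242%. The 10 markers of colon epithelium were sparse for a colon carcinoma, at 7.11 to 14.6 CPM (counts per 1000000 of the scaled library size) summed over the list in the 14 IgG and non-responder tumors and 125 and 54.0 CPM in responder replicates 15 and 16, and Cdx2, a transcription factor of intestinal epithelium, had 0 counts in 15 of the 16 tumors. Both responders held transcripts of lymphoid and fat tissue at levels that the other tumors lacked. The 8 B cell markers summed to 1245 and 310 CPM in responder replicates 15 and 16, against 1.55 to 7.97 CPM in the other tumors. The 6 adipocyte markers summed to 2287 and 404 CPM, against 16.8 to 144. Skeletal muscle transcripts were highest among IgG tumors, where the 6 markers summed to 1.79 to 1796 CPM with a median of 11.2. In non-responders they summed to 2.47 to 66.7 CPM, and in responder replicates 15 and 16 to 2.54 and 11.1 CPM.

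Interferon gamma is made chiefly by activated T cells and NK cells. It binds a receptor of IFNGR1 and IFNGR2 chains, and JAK1 and JAK2 then pass the signal on by phosphorylation to the nucleus, where gamma-activated sites lie near genes such as Irf1. IRF1 in turn switches on antigen presentation genes, SOCS1 inhibits the JAK kinases as a negative feedback, and IDO1 degrades tryptophan to kynurenine, a step known to restrain T cells in tumors.

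RefSeq start regions, 250 bases before and 50 bases after the transcription start on build GRCm38.p6, were held for 7 of the 8 genes, all but Ido1, and were searched for the gamma-activated site TTCNNNGAA and, on both strands, for the interferon-stimulated element GAAANNGAAA. The windows that hold a match are shown because these motifs are the textbook DNA elements of interferon-induced genes. Irf1 and Socs1 are the induced genes of the 8 for which a start region was held. Capitals mark the matches, which overlap each other in Socs1, and each window is read 5′ to 3′ on the strand of its gene.

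Irf1, chr11:53769899-53769957, plus strand: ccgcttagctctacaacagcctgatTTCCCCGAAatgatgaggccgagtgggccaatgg

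Socs1, chr16:10785579-10785644, minus strand: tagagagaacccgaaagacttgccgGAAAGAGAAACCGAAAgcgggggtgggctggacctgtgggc

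Ifng, chr10:118440796-118440830, plus strand: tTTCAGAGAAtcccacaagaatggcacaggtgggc

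The match began 90 bases before the start in Irf1 and 249 bases before it in Ifng, and the pair in Socs1 began 83 and 77 bases before it. TTCNNNGAA was present in 8.3% of the 32851 RefSeq start regions and GAAANNGAAA in 3.44%. No match was found in the windows of Ifngr1, Ifngr2, Jak1 or Jak2. A match is a description of the letters only.

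Per kilobase of exon, Irf1 was the most abundant of the 8 transcripts, with a median over the 16 tumors of 83.3 CPM per kilobase. Ifngr1 followed at 33.4, Jak1 at 26.7, Ifngr2 at 14.4 and Jak2 at 12.5 CPM per kilobase, and Socs1 was at 4.11. Ifng, at 1.27 CPM per kilobase, and Ido1, at 0.755, were the scarcest, and their order was the least settled, with Ifng above Ido1 in 12 of 16 tumors. Every other neighbor in this order kept its place in 14 to 16 of the 16 tumors. The cytokine and the enzyme were therefore read at much lower counts than the receptor and kinases: Ifng had 12 to 263 counts per tumor and Ido1 7 to 314, against at least 993 for each receptor chain and kinase.

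**Figure D1:**
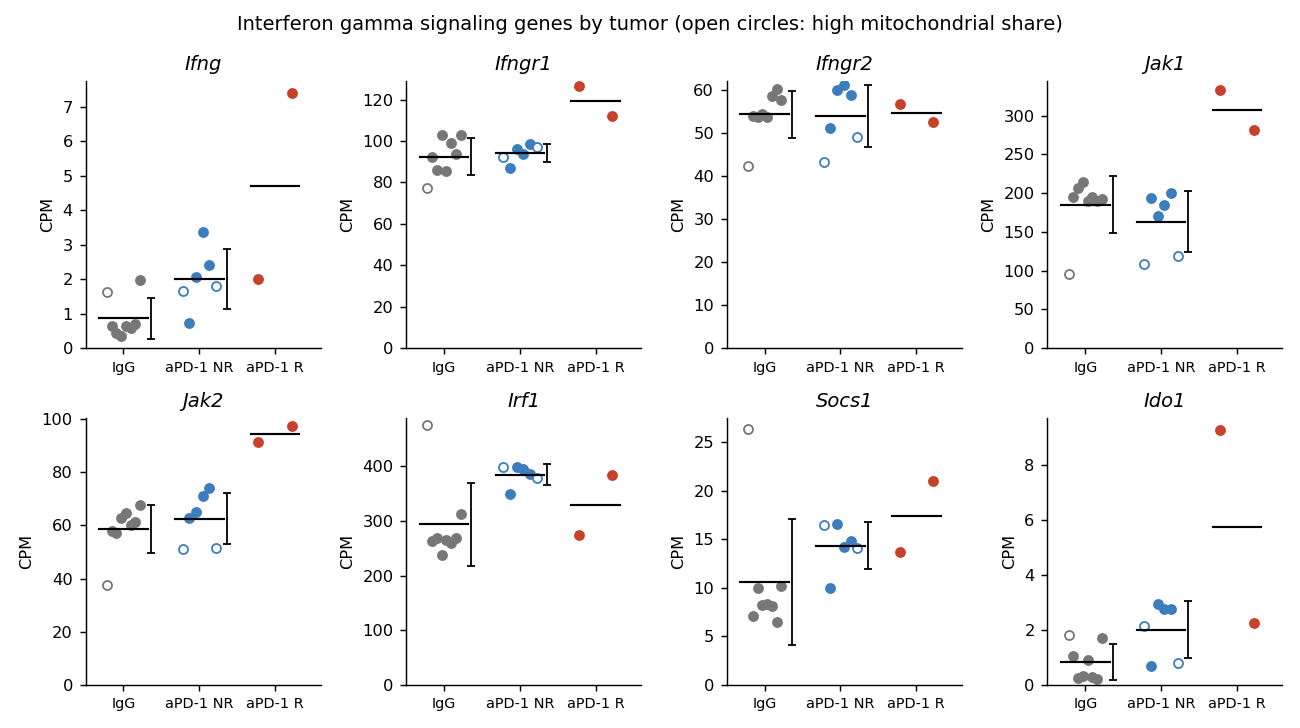
Level of each of the 8 genes in each tumor (CPM, linear axis from 0) by group, with the group mean as a line and the SD as a bar where a group has more than 2 tumors. Open circles are the 3 tumors of high mitochondrial share. Ifngr1, Jak1 and Jak2 of both responders lie above all other tumors, while Irf1 does not.

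The cytokine Ifng (ENSMUSG00000055170, chromosome 10, 118441046 to 118445892, plus strand) was low in most IgG tumors, intermediate in non-responders and unlike in the 2 responders. IgG tumors had 0.360 to 1.97 CPM with a median of 0.630. Non-responders had 0.729 to 3.37 CPM with a median of 1.93. Responder replicate 15 had 2.01 CPM, within the range of the non-responders, and responder replicate 16 had 7.40 CPM, above all other tumors. In GENCODE M21, Ifng overlaps the unclassified transcript Gm49751 on the same strand, and Jak1 overlaps Gm12785 on its own strand. Where the annotation used for counting also holds them, the estimates could divide reads between the overlapping genes.

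The receptor chains differed from each other. Ifngr1 (ENSMUSG00000020009, chromosome 10, 19591949 to 19610229), the chain that binds the cytokine, was at 77.5 to 103 CPM (median 93.1) in IgG tumors and 87.0 to 98.5 CPM (median 95.01) in non-responders. Both responders lay above this, at 127 and 112 CPM for replicates 15 and 16. Ifngr2 (ENSMUSG00000022965, chromosome 16, 91547072 to 91565623), the chain that brings in JAK2, was at 42.2 to 60.0 CPM (median 54.1) in IgG tumors, 43.2 to 61.0 (median 54.9) in non-responders and 56.7 and 52.4 in the responders, so its groups overlapped throughout.

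Both kinases were highest in the responders. Jak1 (ENSMUSG00000028530, chromosome 4, 101152367 to 101265282) was at 96.1 to 214 CPM (median 193) in IgG tumors, 109 to 200 CPM (median 178) in non-responders and 333 and 282 CPM in responder replicates 15 and 16. Jak2 (ENSMUSG00000024789, chromosome 19, 29251828 to 29313080) was at 37.7 to 67.8 CPM (median 60.9), 51.0 to 74.1 CPM (median 64.0), and 91.5 and 97.6 CPM. The low ends came from the 3 tumors of high mitochondrial share, which had 96.1 to 119 CPM of Jak1, against 171 to 214 CPM in the other 11 IgG and non-responder tumors. The same 3 tumors had 37.7 to 51.7 CPM of Jak2 against 57.2 to 74.1, and 42.2 to 49.0 CPM of Ifngr2 against 51.1 to 61.0. The values without these 3 tumors are therefore also given in each group comparison below.

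Of the induced genes, Irf1 (ENSMUSG00000018899, chromosome 11, 53770014 to 53778374) was at 238 to 476 CPM (median 267) in IgG tumors and 349 to 399 CPM (median 391) in non-responders. Its responder values, 275 and 384 CPM for replicates 15 and 16, fell on either side of the lowest non-responder. Socs1 (ENSMUSG00000038037, chromosome 16, 10782240 to 10785536) was at 6.47 to 26.4 CPM (median 8.27), 9.93 to 16.6 CPM (median 14.5), and 13.7 and 21.0 CPM. In both genes IgG replicate 1 alone set the upper end of the IgG range, and the other 7 IgG tumors had 238 to 313 CPM of Irf1 and 6.47 to 10.2 CPM of Socs1. Ido1 (ENSMUSG00000031551, chromosome 8, 24584136 to 24597009) was at 0.225 to 1.82 CPM (median 0.624) in IgG tumors and 0.699 to 2.94 CPM (median 2.45) in non-responders. The responders were in the opposite order to Ifng, with 9.28 CPM of Ido1 in replicate 15 and 2.25 CPM in replicate 16.

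To ask which of these genes differed between tumors that responded and tumors that did not under the same antibody, responders were compared with non-responders. Jak1, Jak2 and Ifngr1 rose, by 1.89-fold, 1.51-fold and 1.27-fold. The cytokine Ifng, its 3 induced genes and the receptor chain Ifngr2 did not pass the test, although the values of Ifng and Ido1 were larger and less certain than those of the 3 genes that passed. In the quasi-likelihood test of edgeR, with p adjusted by the Benjamini-Hochberg method over 18251 genes, the log2 fold change was 0.92 for Jak1 (standard error 0.25, adjusted p = 0.0148), 0.59 for Jak2 (standard error 0.18, adjusted p = 0.0249) and 0.34 for Ifngr1 (standard error 0.11, adjusted p = 0.0436). These are 3 of 8 genes, where 15.4% of all genes tested passed in the same direction and 21.5% had both responders above all 6 non-responders. Ifng had a log2 fold change of 1.23 (95% interval -0.03 to 2.49, adjusted p = 0.173) and Ido1 of 1.51 (95% interval -0.06 to 3.08, adjusted p = 0.177). The intervals were -0.58 to 1.13 for Socs1, -0.67 to 0.23 for Irf1 and -0.28 to 0.32 for Ifngr2, whose log2 fold change was 0.02.

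These calls rested on both responders. Without replicate 15, 0 of the 8 genes passed by edgeR, and without replicate 16 only Jak1 did, with an adjusted p of 0.0472. The values of the cytokine and the enzyme turned on a single tumor each: the log2 fold change of Ifng was 1.81 without replicate 15 and -0.05 without replicate 16, and that of Ido1 was 0.09 and 2.15. Without non-responder replicate 10, and with no filter on low counts, 1 gene passed, Jak1 in each case. The call of Ifngr1 lay near the threshold and was lost in 10 of 16 fits with 1 tumor left out and in the fit of only these 2 groups (edgeR, adjusted p = 0.0827). Without the 3 tumors of high mitochondrial share all 3 passed, at log2 fold changes of 0.66 for Jak1, 0.41 for Jak2 and 0.29 for Ifngr1.

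Several marker lists moved with this split, where 15.4% of all genes passed as higher and 4.34% as lower. All 10 T cell markers rose, from 14.8 to 41.4 CPM summed over the list in non-responders to 296 and 275 CPM in responder replicates 15 and 16, with no marker at 0. Of the NK cell markers 6 of 9 rose, with sums of 46.9 and 104 CPM against 16.7 to 42.7. Of the cytotoxic effector genes 6 of 9 rose, with sums of 111 and 245 CPM against 39.7 to 101. Gzma, Prf1 and Nkg7 stand in both of these lists. So replicate 16, the responder with more Ifng, also had more NK cell and cytotoxic transcripts, and replicate 15, the responder with more Ido1 and Jak1, had more of the B cell, adipocyte and lymph node stroma transcripts, the last at 629 and 230 CPM. All 8 B cell markers, all 7 lymph node stroma and high endothelial venule markers, all 6 adipocyte markers and 8 of 9 dendritic cell markers passed as higher in responders, against 1 of 10 macrophage markers. Of the colon epithelium markers 5 of the 8 tested passed as higher, and of the endothelial markers 3 of 6, with endothelial sums of 359 and 194 CPM against 43.3 to 165 in non-responders. Of the remaining lists, 2 of 6 plasmacytoid dendritic cell markers passed as higher and 1 as lower, 1 of 5 neutrophil and 1 of 8 fibroblast markers passed as higher, and 0 of 6 skeletal muscle, 0 of 5 keratinocyte and 0 of 13 mitochondrially encoded genes passed by edgeR, with 0, 1 and 0 at an unadjusted p under 0.05. The part of these cells in the values of Jak1, Jak2, Ifngr1, Ifng and Ido1 was not tested.

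**Figure D2:**
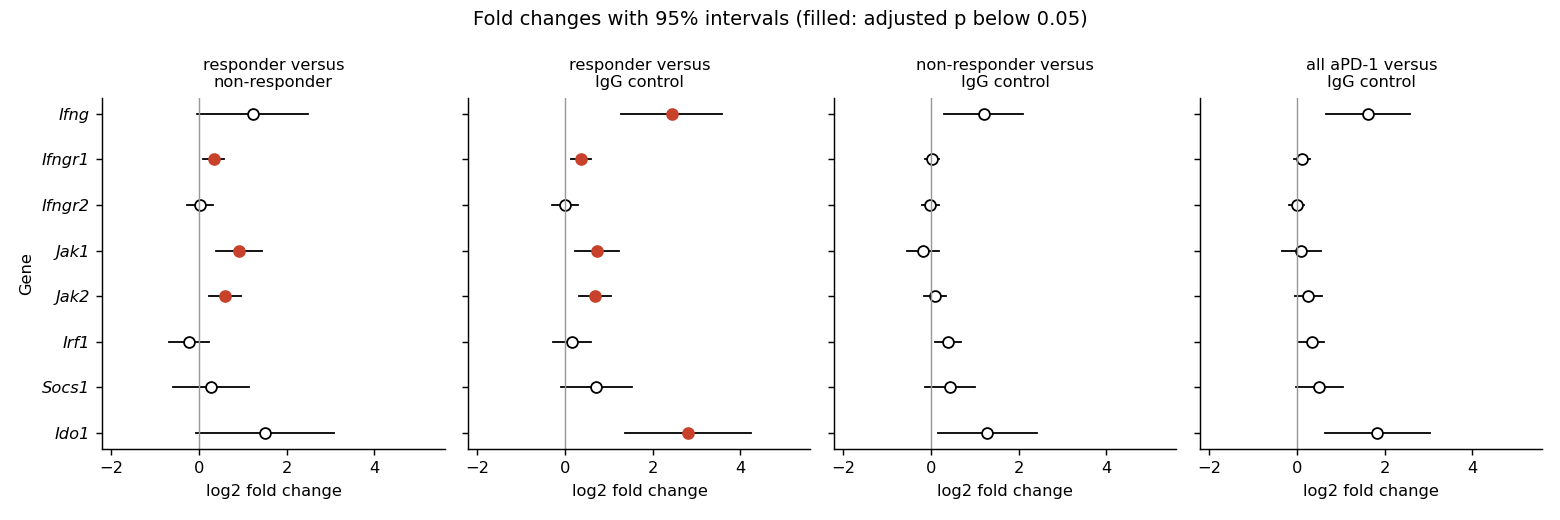
Log2 fold change of each of the 8 genes (points) with its 95% interval (lines) in the 4 comparisons, from edgeR. Filled points passed an adjusted p of 0.05: 3 genes in responders against non-responders, 5 in responders against IgG, and 0 in the other 2 comparisons.

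Against the IgG controls, responders had higher levels of the cytokine and the enzyme as well. Ifng rose 5.41-fold and Ido1 6.98-fold, together with Jak1 (1.66-fold), Jak2 (1.61-fold) and Ifngr1 (1.29-fold). In edgeR the log2 fold change was 2.44 for Ifng (standard error 0.55, adjusted p = 0.00335), 2.80 for Ido1 (standard error 0.68, adjusted p = 0.00596), 0.69 for Jak2 (standard error 0.17, adjusted p = 0.00661), 0.73 for Jak1 (standard error 0.24, adjusted p = 0.0363) and 0.37 for Ifngr1 (standard error 0.11, adjusted p = 0.0217). The 5 of 8 genes stand beside 17.7% of all genes that passed as higher, and in all 5 both responders lay above all 8 IgG tumors, as they did for 19.3% of all genes. Socs1 had a log2 fold change of 0.71 (95% interval -0.09 to 1.52), Irf1 of 0.16 (-0.26 to 0.59) and Ifngr2 of 0.01 (-0.28 to 0.30).

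The calls again rested on both tumors. Without replicate 15 only Ifng passed in edgeR (log2 fold change 3.01, adjusted p = 0.00471), and without replicate 16 only Ido1 did (3.43, adjusted p = 0.00479). The rise of each was much smaller without the tumor that held most of it: Ifng had 1.15 without replicate 16 (edgeR, adjusted p = 0.308) and Ido1 had 1.37 without replicate 15 (adjusted p = 0.493). Without non-responder replicate 10 the count was 3 of 8, and it was also 3 with no filter on low counts, with Ifngr1 and Jak1 lost in both. Without the 3 tumors of high mitochondrial share these 5 passed and Socs1 did too, at a log2 fold change of 1.00 (edgeR, adjusted p = 0.00114). This comparison shares its responders with the one above and its IgG tumors with those below.

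Non-responders against IgG controls asked whether aPD-1 changed the axis where CD8 staining stayed low. Of the 8 genes 0 passed, and 6 had a log2 fold change above 0, the cytokine and the 3 induced genes with the 4 highest values. Nor did any other gene: edgeR called 0% of all genes tested (smallest adjusted p = 0.442) and DESeq2 called 10, none of them one of the 8. The log2 fold change was 1.21 for Ifng (95% interval 0.31 to 2.11), 1.29 for Ido1 (0.15 to 2.43), 0.39 for Irf1 (0.09 to 0.68) and 0.44 for Socs1 (-0.14 to 1.01), each with an adjusted p of 0.987 in edgeR. It was 0.03 for Ifngr1, -0.01 for Ifngr2, 0.09 for Jak2 and -0.18 for Jak1. At an unadjusted p under 0.05, 3 of the 8 genes (Ifng, Irf1 and Ido1) would count, beside 3.8% of all genes.

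IgG replicate 1, the tumor with the highest mitochondrial share, decided the call of Irf1. When it was left out, Irf1 rose in non-responders by a log2 fold change of 0.53 (edgeR, adjusted p = 0.0310), 1 of 7 genes that passed (0.0387% of those tested), and Socs1 had 0.79 (adjusted p = 0.0540). All 6 non-responders then lay above all 7 remaining IgG tumors for Irf1, as did 0.318% of all genes, and 5 of 6 did for Socs1, 4 of 6 for Ido1 and 3 of 6 for Ifng. Without all 3 tumors of high mitochondrial share 0 of the 8 passed by edgeR, with log2 fold changes of 1.49 for Ifng, 1.74 for Ido1, 0.51 for Irf1 and 0.74 for Socs1 (adjusted p = 0.382, 0.429, 0.101 and 0.168), and of 0.15 for Jak2, 0.05 for Ifngr2, -0.01 for Ifngr1 and -0.08 for Jak1.

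In the randomized comparison, all 8 aPD-1 against all 8 IgG tumors, the cytokine and the induced genes had the highest values and 0 of the 8 passed. The log2 fold change was 1.84 for Ido1 (95% interval 0.63 to 3.04), 1.62 for Ifng (0.68 to 2.57), 0.51 for Socs1 (-0.03 to 1.05) and 0.33 for Irf1 (0.06 to 0.61). Of the 8 aPD-1 tumors, 6 had more Ido1 and 5 more Ifng than any IgG tumor. By edgeR 0% of all genes passed, with a smallest adjusted p of 0.152 that Ifng shared, while 2463 genes (13.5%) and 3 of the 8 (Ifng, Ido1 and Irf1) had an unadjusted p under 0.05. DESeq2 called 131 genes, Ifng among them (log2 fold change 1.62, adjusted p = 0.0465), and no other of the 8. Ifngr2 was at -0.01 (-0.19 to 0.17), and Ifngr1, Jak1 and Jak2 were at 0.12, 0.11 and 0.27. Without the 3 tumors of high mitochondrial share 0 of the 8 passed by edgeR, with log2 fold changes of 2.30 for Ido1, 1.95 for Ifng, 0.83 for Socs1 and 0.43 for Irf1 (adjusted p = 0.0823 to 0.0879), and of 0.30 for Jak2, 0.18 for Jak1, 0.09 for Ifngr1 and 0.00 for Ifngr2.

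To see which genes followed the cytokine where responders played no part, the slope of each gene on the log2 level of Ifng was fitted over the 14 IgG and non-responder tumors, with the group as a covariate. Ido1 had the steepest slope of the 7 other genes, and Socs1 and Irf1 followed. For each doubling of Ifng, Ido1 was higher by 1.11 on the log2 scale (standard error 0.25, adjusted p = 0.408), Socs1 by 0.49 (standard error 0.15, adjusted p = 0.791) and Irf1 by 0.25 (standard error 0.07, adjusted p = 0.791), in edgeR over 15939 genes. Slopes of the receptor and kinase genes were near 0, from -0.15 for Jak1 to 0.02 for Ifngr2. No gene passed the adjusted threshold (0% of those tested), and 702 genes (4.4%) had an unadjusted p under 0.05, Ido1, Irf1 and Socs1 among them.

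Without the group term, which lets the difference between IgG and non-responder tumors count, 57 genes passed in edgeR, including Ido1 (slope 1.13, adjusted p = 0.0144) and Irf1 (slope 0.29, adjusted p = 0.0460). Leaving out IgG replicate 1 cut the slopes of Irf1 to 0.12 and of Socs1 to 0.17 and left Ido1 at 1.05. As a description over the same 14 tumors, Pearson's r of log2 CPM with Ifng was 0.86 for Ido1, 0.84 for Irf1 and 0.72 for Socs1. It was -0.43 for Jak1, and between 0.00 and 0.10 for Ifngr1, Ifngr2 and Jak2. Without IgG replicate 1, r with Ifng was 0.86 for Ido1, 0.88 for Irf1 and 0.80 for Socs1. In that set it was -0.43 for Jak1 and 0.13 to 0.31 for Ifngr1, Ifngr2 and Jak2. Unlike the slopes, r takes no account of the group. The closest pair of the 8 was Irf1 and Socs1, with r = 0.93, or 0.91 without IgG replicate 1. The 14 points come from 2 groups and differ in mitochondrial share, whose part in r was not tested.

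**Figure D3:**
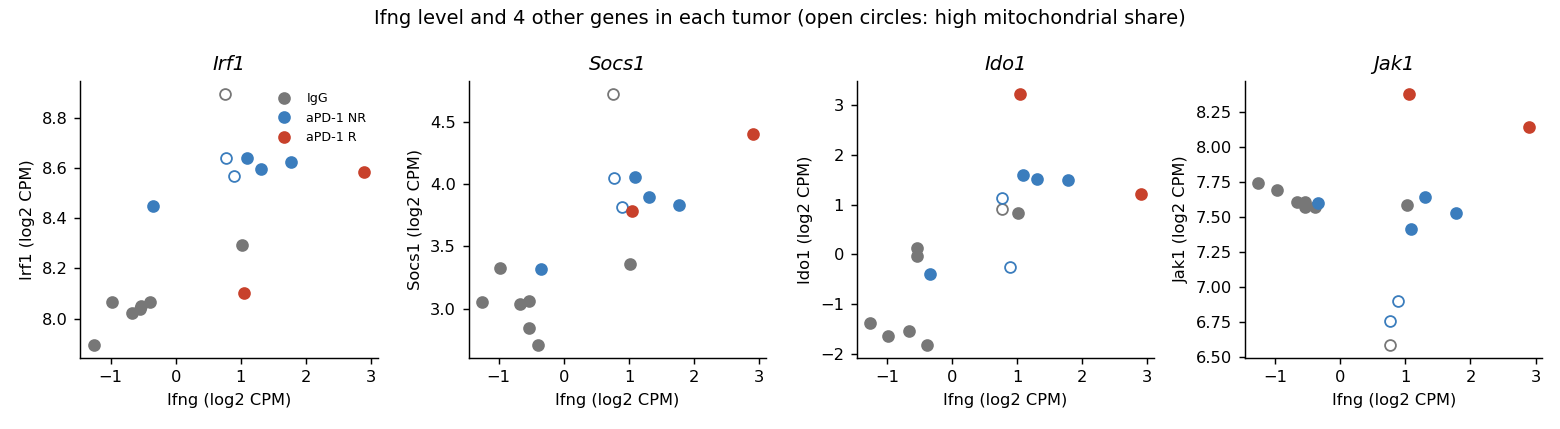
Level of Ifng (horizontal axis) against Irf1, Socs1, Ido1 and Jak1 (vertical axes), all in log2 CPM with a prior count of 2, with 1 point for each of the 16 tumors by group. Open circles are the 3 tumors of high mitochondrial share, which are the lowest 3 for Jak1. The responders lie apart from the other tumors for Ido1 in replicate 15 and for Ifng in replicate 16.

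Genes with the most similar pattern to each induced gene were ranked by Pearson's r of log2 CPM over the 14 tumors, among 13930 genes whose mean reached 1 CPM. Closest to Ifng were Apol6 (r = 0.94), Ubd (0.94), Iigp1 (0.92), Gm12185 (0.92) and Gbp4 (0.92). Iigp1 and Gbp4 encode GTPases of cell-autonomous defense, and Ubd encodes a ubiquitin-like modifier. Closest to Irf1 were Psmb9 (0.97), an immunoproteasome subunit, Tmem140 (0.96), Gm4841 (0.95), Gbp8 (0.93) and Irf5 (0.93). These r take no account of the group. Within non-responders alone, r with Irf1 was 0.94 for Psmb9 and 0.91 for Irf5. It was lower there for Gm4841 (0.68), Gbp8 (0.64) and Tmem140 (0.59), while all 5 had r of 0.92 to 0.98 within IgG tumors alone. Psmb9 (0.96) was also among the closest to Socs1, with Apol9b (0.97), Trafd1 (0.96), Apol9a (0.96) and Zbp1 (0.95), a sensor of Z-form nucleic acids. Apol9a and Apol9b are near-identical copies, so the division of reads between them is uncertain. Closest to Ido1 were Klrk1 (0.93), which encodes the NKG2D receptor of NK and T cells, Ido2 (0.92), the neighboring paralog, H2-DMa (0.92), a peptide-loading chaperone of MHC class II, Tmem51 (0.92) and Calhm6 (0.90).

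Over all 16 tumors some of these likenesses fell. With the responders included, r fell to 0.56 between Ido2 and Ido1, to 0.49 between Irf5 and Irf1, and to 0.78 between Apol6 and Ifng, while it was 0.92 between Ubd and Ifng and 0.95 between Tmem140 and Irf1.

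Because Ifng is a product of T cells among others, its level was set against the summed CPM of Cd3d, Cd3e and Cd3g, which encode chains of the T cell receptor complex. Per 100 units of CD3, Ifng was at 10.8 to 26.7 in IgG tumors, 14.7 to 44.3 in non-responders, and 2.96 and 10.97 in responder replicates 15 and 16. The geometric means were 18.0, 27.2 and 5.70. The 2 responders lay below all 6 non-responders, by 2.26 on the log2 scale (p = 0.0357 in a two-sided exact permutation test, the lowest value possible for 2 against 6 tumors). Against IgG tumors the difference was -1.66 (exact permutation test, two-sided, p = 0.0444), and responder replicate 16 lay within their range. That p was above 0.05 with any of 9 of the 10 tumors left out, and the difference was -0.71 without responder replicate 15 (exact permutation p = 0.333) and -2.60 without replicate 16 (exact permutation p = 0.111). Against non-responders it was -1.31 and -3.20 in the same order, where p cannot go below 0.143 in the exact permutation test.

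The groups differed in the denominator itself, since the 3 CD3 genes summed to 68.0 and 67.4 CPM in the responders, against 4.34 to 12.7 in non-responders and 2.52 to 9.56 in IgG tumors. The CD3 sum is not independent of a split by CD8 staining, so the ratio is a description of these groups. Between non-responders and IgG tumors the ratio differed by 0.60 on the log2 scale (SD 0.67, n = 6, and 0.39, n = 8; exact permutation test, two-sided, p = 0.0589). That difference was 0.76 with Cd3e alone as the denominator (exact permutation p = 0.0902) and 0.63 with Cd8a and Cd8b1 (exact permutation p = 0.0470). With single tumors left out it ran from 0.46 without non-responder replicate 12 (exact permutation p = 0.136) to 0.78 without replicate 10 (exact permutation p = 0.0194), and p was above 0.05 in 11 of the 14 cases.

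**Figure D4:**
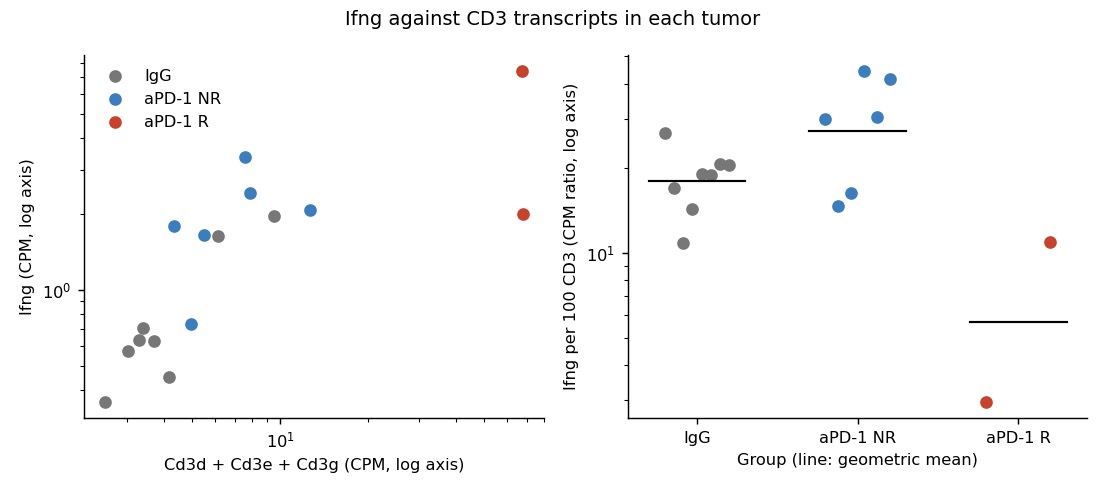
Left, Ifng against the summed CD3 transcripts of each tumor (CPM, both axes logarithmic). Right, Ifng per 100 units of CD3 (ratio of CPM, logarithmic axis) by group, with the geometric mean as a line; the means are 18.0 in IgG tumors, 27.2 in non-responders and 5.70 in responders.

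Around the 8 genes, 6 lists of the wider pathway were counted. The list of inducers of Ifng holds mostly cytokines, receptors and transcription factors that switch it on in T and NK cells. It also holds Il18bp, the interleukin 18 binding protein, which is not an inducer. This list had the highest medians of the 6 lists in both responder comparisons. Of the 18 tested of 19, 12 rose in responders against non-responders (median log2 fold change 1.60) and 15 against IgG (2.02), with 0 lower in both, beside 15.4% and 17.7% of all genes that passed as higher. The median of all genes tested was 0.02 and -0.02. Stat4, which relays interleukin 12, rose 6.49-fold over non-responders (edgeR, adjusted p = 5.45e-07), the interleukin 27 receptor chain Il27ra 18.8-fold (adjusted p = 9.27e-07) and the interleukin 18 receptor Il18r1 7.21-fold (adjusted p = 9.52e-06). The fold of Il27ra starts from a low level, 0.576 to 1.99 CPM in non-responders, against 26.5 and 16.5 CPM in responder replicates 15 and 16. T cell markers and most NK cell markers also rose in responders, as did B cell, dendritic cell, lymph node stroma and adipocyte markers. The part of these cells in the rises of the list was not tested. Eomes stands in both the inducer and the NK cell list. The count was 9 without responder replicate 15 and 8 without replicate 16, and against IgG it was 12 and 9.

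The relay that passes the signal on and its inhibitors had lower medians. Of 15 genes, 4 rose against non-responders (median log2 fold change 0.36) and 7 against IgG (0.50), with 0 lower, where 15.4% and 17.7% of all genes passed as higher. The phosphatase Ptpn6, abundant in blood cells, rose 2.59-fold over non-responders (edgeR, adjusted p = 2.62e-05), Irf8, a transcription factor of myeloid and B cells, 2.58-fold (adjusted p = 0.000552) and the phosphatase Ptpn1 1.39-fold (adjusted p = 0.00205). Without replicate 15, 1 of the 15 passed against non-responders and 2 against IgG. Of the 9 other JAK and SOCS genes, 3 rose against non-responders and 6 against IgG, beside the same 15.4% and 17.7%. Socs2, a feedback gene of growth hormone and cytokine receptors, rose 3.53-fold over non-responders (edgeR, adjusted p = 1.97e-05), Socs4 1.34-fold (adjusted p = 0.0204) and Jak3, the lymphoid kinase, 1.57-fold (adjusted p = 0.0496), a call lost in 11 of 16 fits with 1 tumor left out. With either responder left out, 1 of these 9 passed against non-responders, and against IgG 1 passed without replicate 15 and 3 without replicate 16. Against non-responders 5 passed without the tumors of high mitochondrial share and 1 with no filter on low counts.

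The 33 target genes include chemokines, MHC and immunoproteasome genes and the GTPases of cell-autonomous defense. Against non-responders 5 of 33 rose and 0 fell, a share near the 15.4% of all genes, with a median log2 fold change of 0.09. The 3 with the smallest p were Ciita, the master regulator of MHC class II (6.53-fold, edgeR adjusted p = 3.70e-05), Icam1, an adhesion molecule (3.28-fold, adjusted p = 7.04e-05), and Ifi30, a lysosomal thiol reductase (1.32-fold, adjusted p = 0.0102). With either responder left out, 2 of 33 passed. Against IgG 14 of 33 rose, beside 17.7% of all genes, with a median of 0.56 against -0.02 for all genes. Fewer rose with either responder left out, and 22 rose without the 3 tumors of high mitochondrial share.

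In non-responders against IgG, 0 of the 33 targets passed, but all 33 had a log2 fold change above 0, with a median of 0.45, where 8890 of the 18251 genes tested were above 0. At an unadjusted p under 0.05, 23 of 33 would count, beside 3.8% of all genes. The 33 genes were read in the same tumors and are not independent of each other. Their list was also chosen with earlier results of these data known, so its counts are a description. For all aPD-1 against IgG the median was 0.49. The 3 targets with the smallest p there were Cxcl9, a chemokine that draws T cells (log2 fold change 0.96), Cd274, which encodes the PD-1 ligand PD-L1 (0.89), and Gbp5, a guanylate-binding protein (0.82), each with an adjusted p of 0.152 in edgeR. DESeq2 called 7 of the 33 in that comparison, these 3 included, with adjusted p of 0.00322, 0.00645 and 0.0138. In the fit on the Ifng level, 32 of 33 slopes were above 0 (median 0.25, against 0.0097 for all genes). Of the 33, 25 had an unadjusted p under 0.05, beside 4.4% of all genes. The smallest p were those of Iigp1 (slope 0.50, edgeR adjusted p = 0.114), Igtp (0.45, adjusted p = 0.193) and Gbp5 (0.36, adjusted p = 0.395). No target passed there in edgeR, while 4 did with the mitochondrial share as a covariate, Iigp1 and Igtp among them (adjusted p = 0.0442 for each), and 9 did without the group term. Of the 25 targets with a RefSeq start region, 7 held TTCNNNGAA and 10 held GAAANNGAAA in any of their regions. The shares over all start regions were 8.3% and 3.44%, but these were counted per region and not per gene.

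**Figure D5:**
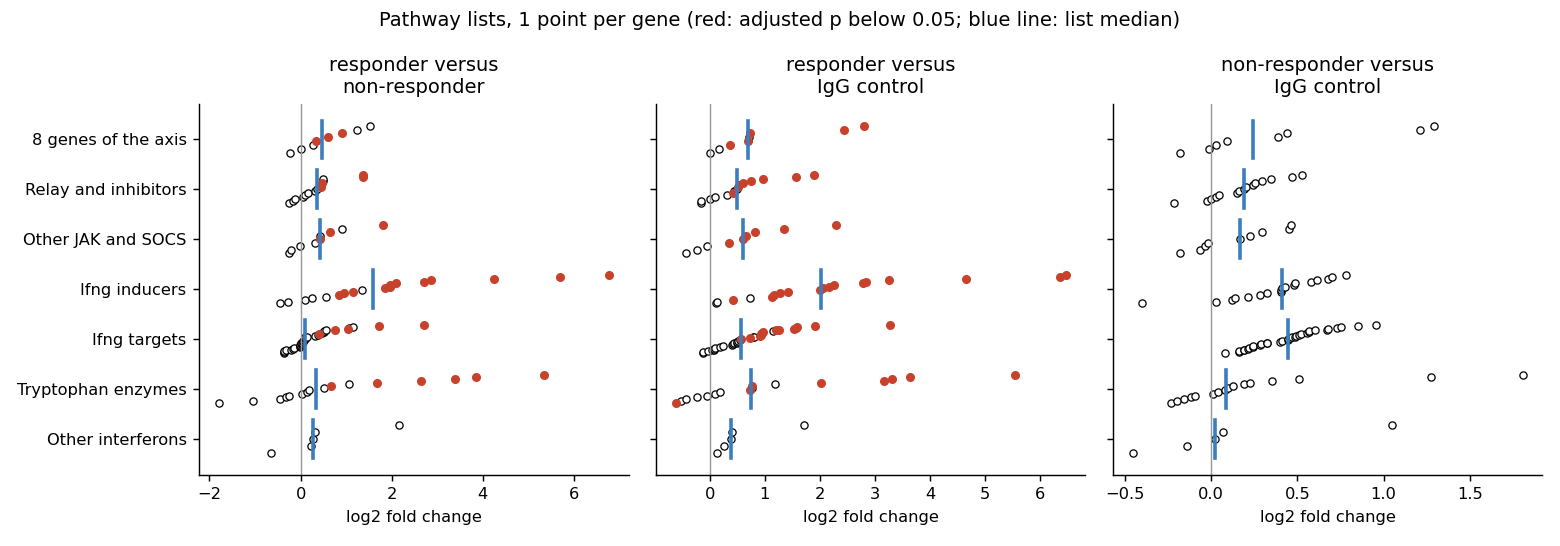
Log2 fold change of each tested gene of the 8-gene axis and of the 6 wider lists in 3 comparisons, with the list median as a blue line and genes that passed an adjusted p of 0.05 in red; the horizontal scales differ between panels. The inducers spread to the right in both responder comparisons, and all 33 targets lie right of 0 in non-responders against IgG without passing.

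The enzymes and sensors of tryptophan breakdown, the pathway that Ido1 opens, moved in part. Of 16 tested of 17, 6 rose in responders against non-responders (median log2 fold change 0.35) and 0 fell, beside 15.4% and 4.34% of all genes. Against IgG 7 rose and 1 fell (median 0.75), beside 17.7% and 5.17% of all genes. The gene that fell was Slc7a5, which encodes a transporter of tryptophan and other large amino acids (log2 fold change -0.62, edgeR adjusted p = 0.0144, and 0.156 without replicate 15). Over non-responders, Il4i1, an amino acid oxidase of dendritic and B cells, rose 40.7-fold (edgeR, adjusted p = 2.69e-07). Kmo, the kynurenine hydroxylase, rose 14.3-fold over them (adjusted p = 1.36e-06) and Kynu, kynureninase, 10.5-fold (adjusted p = 6.44e-05). These folds start from low levels in non-responders, at 0.608 to 1.49 CPM for Il4i1, 1.37 to 2.05 for Kmo and 0.427 to 0.925 for Kynu. Responder replicates 15 and 16 had 58.2 and 19.6 CPM of Il4i1, 35.4 and 13.9 of Kmo, and 8.45 and 4.98 of Kynu. Fewer rose with either responder left out, in both responder comparisons. T cell, B cell, dendritic cell, lymph node stroma and adipocyte markers also rose in responders, as given above. The part of these cells in the rises of the list was not tested. The value of Ido2 in responders against non-responders was -1.80 on the log2 scale (edgeR, adjusted p = 0.0521), opposite in sign to that of Ido1. It passed in DESeq2 (adjusted p = 0.0148), in edgeR without the tumors of high mitochondrial share (0.0281), with that share as a covariate (0.0398) and with 2 groups (0.0323), and in 4 of 16 fits with 1 tumor left out. The slope of Ido2 on Ifng over the other 14 tumors was 0.68 (edgeR, adjusted p = 0.791).

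Of 9 other interferon ligands and receptors, 5 were tested and 0 passed in either responder comparison by edgeR, with 3 at an unadjusted p under 0.05 in each, as had 31.2% and 33.3% of all genes. DESeq2 called 1 in responders against non-responders. The interferon lambda genes Ifnl2 and Ifnl3 had 0 counts in all 16 tumors, which allows up to 3 counts in each. Ifnar1 and Ifnar2, the type I interferon receptor chains, had log2 fold changes of 0.28 (edgeR, adjusted p = 0.0694) and 0.23 (adjusted p = 0.157) in responders against non-responders, and with the mitochondrial share as a covariate 4 of the 5 passed, these among them.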

How the data were processed

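RNA from 2 fresh frozen sections of each of 16 MC38 tumors was poly(A) enriched and sequenced in strand-specific libraries. The authors aligned reads with STAR 2.6 to GRCm38 and estimated counts per gene with RSEM 1.3.0 on Ensembl annotation, and the deposited values are these expected counts, without normalization, in 1 table with 1 column per tumor. RSEM divides reads that fit several genes. Values were rounded to whole counts (7.84% were not whole), 92 spike-in entries were left out, and names and positions were taken from GENCODE mouse release M21, which matched 53274 of 53465 genes.

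Total counts were 26603449 to 39948866 per tumor, with a median of 34105782. Genes were tested in R 4.3.3 with edgeR 4.0.16: library sizes scaled by TMM, low genes dropped by filterByExpr with the 3 groups, robust quasi-likelihood fits and Benjamini-Hochberg adjustment over all genes tested. The 3 groups were fitted together, all aPD-1 against IgG in a fit with 2 groups, and the slopes on Ifng (log2 CPM, prior count 2) over 14 tumors with group as a covariate. "Passed", "rose" and "fell" mean an adjusted p below 0.05, with no limit on the fold change. Fits were tested on simulated counts. CPM uses the TMM-scaled library size. Intervals are 95%. Ratios were compared by exact permutation tests in Python 3.11.15 with numpy 2.4.6 and scipy 1.17.1.

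Alternatives were DESeq2 1.42.0, median-of-ratios size factors, no filter, at least 10 counts in at least 8 tumors, only the groups compared, leaving out each tumor, leaving out tumors whose mitochondrial share was over 1.5 times the median, that share as a covariate, and for slopes a prior count of 0.5, no group term or 1 group alone. Leaving out the tumors of high mitochondrial share for the slopes was added after seeing the data. A lone responder was taken to vary as the other groups do.

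The 8 genes, the 6 pathway lists and the 16 marker lists were chosen with earlier results of these data known. Genes named from a list are those with the 3 smallest p in responders against non-responders, in all aPD-1 against IgG, and in the slope on Ifng; not all of these are printed, and 1 of them is not reported here. Ifnl2 and Ifnl3 were named for their role, and the values of Ido2 against non-responders and of Slc7a5 were chosen after they were seen. Genes of similar pattern are the 5 of highest r with Ifng, Irf1, Socs1 and Ido1, the 8 genes left out. Socs3 and Wars stand in 2 pathway lists each. Gzma, Prf1 and Nkg7 stand in both the NK cell and the cytotoxic list, and Eomes in both the inducer and the NK cell list. Each tumor came from another mouse.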

Additional observations from a re-analysis of the deposited data

Results flagged for a closer look

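In 16 sets of values (8 genes in the IgG and the non-responder tumors, as log2 CPM), 6 values stood apart from their group by Dixon's criterion at 95%, where chance gives about 1 in 20 sets. IgG replicate 1 was apart in 5 genes. It was the lowest for Jak1 at 96.1 CPM (others 190.2 to 214), Jak2 at 37.7 CPM (others 57.2 to 67.8) and Ifngr2 at 42.2 CPM (others 53.5 to 60.0), and the highest for Irf1 at 476 CPM (others 238 to 313) and Socs1 at 26.4 CPM (others 6.47 to 10.2). Its mitochondrial share, 7.32%, was the highest of the 16 tumors, and the part of that share in these values was not tested. Non-responder replicate 10 was the lowest of its group for Socs1 at 9.93 CPM (others 14.1 to 16.6).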

How the results depend on the processing

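No paired analysis was possible because each tumor has its own replicate number. The counts of genes that passed an adjusted p of 0.05 moved with the tumors of high mitochondrial share: without them 5802 passed in responders against non-responders (3599 with them), 7409 against IgG (4175), and 1 in non-responders against IgG (0 with them), which was also 1 with the share as a covariate. DESeq2 called 10 genes in non-responders against IgG and 131 in all aPD-1 against IgG, with 1 of the 8 among the latter. With no filter 1 of the 8 passed in responders against non-responders and 3 against IgG. Slopes on Ifng gave 57 genes without the group term (2 of the 8), 10 with the mitochondrial covariate and 4 with no filter, against 0.

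With single tumors left out, 1039 (without responder replicate 15) to 5046 (without IgG replicate 1) genes passed in responders against non-responders and 0 to 3 of the 8, and 1398 to 5682 genes against IgG, by the same tumors, and 1 to 6 of the 8. In non-responders against IgG the range was 0 to 7 genes and 0 to 1 of the 8, the higher values without IgG replicate 1, and 0 to 2 genes passed on the slope, 2 without IgG replicate 3. The difference in Ifng per CD3 ran from -3.20 to -1.31 in responders against non-responders (exact permutation p up to 0.143), from -2.60 to -0.71 against IgG (p up to 0.333, and above 0.05 for 9 of the 10 tumors left out), and from 0.46 to 0.78 in non-responders against IgG (p 0.0194 to 0.136); the last was 0.63 with Cd8a and Cd8b1. Too few tumors are left for p below 0.05 with 1 responder.

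Signs turned only where values were near 0 or 1 responder was left. With single tumors left out, log2 fold changes in responders against non-responders ran from -0.049 to 1.81 for Ifng, -0.12 to 0.48 for Socs1 and -0.11 to 0.059 for Ifngr2, and against IgG from -0.15 to 0.31 for Irf1 and -0.12 to 0.031 for Ifngr2. For Ifngr2 they ran from -0.050 to 0.045 in non-responders against IgG and -0.058 to 0.035 in all aPD-1 against IgG, where Jak1 ran from -0.058 to 0.20. Slopes ran from -0.047 to 0.055 for Ifngr1, -0.022 to 0.088 for Ifngr2 and -0.10 to 0.094 for Jak2. Ifngr2 in responders against non-responders was -0.059 with no filter, -0.14 without the tumors of high mitochondrial share, -0.037 with that share as a covariate and -0.014 with 2 groups, and against IgG -0.063 with no filter and -0.090 without those tumors. In non-responders against IgG, Ifngr2 was 0.046 and Ifngr1 -0.011 without those tumors, and Ifngr2 0.064 and Jak1 0.0095 with the covariate. In all aPD-1 against IgG, Ifngr2 was 0.0023 with at least 10 counts in 8 tumors, 0.0020 without those tumors and 0.054 with the covariate. Slopes in IgG tumors alone were -0.026 for Ifngr1 and -0.057 for Ifngr2, and in non-responders alone 0.0063 for Jak1 and 0.11 for Jak2. That of Jak2 was 0.029 without the group term, 0.082 with the covariate and 0.084 without the tumors of high mitochondrial share. Ido1 was dropped by the filter on low counts in IgG tumors alone. The causes were not tested.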
